A study of Mus musculus with 12 samples.

Results

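The cell cycle and DNA replication genes are a set of 44 genes that follow a cell from the licensing of replication origins to mitosis. They were matched by symbol among the 32285 genes of the count tables, and all 44 were found. By role they comprised 12 genes of origin licensing and the replication fork (Mcm2 to Mcm7, Cdc6, Cdt1, Gins2, Pcna, Pclaf and Uhrf1), 3 genes of nucleotide supply (Rrm1, Rrm2 and Tyms), 5 G1 cyclins and kinases (Ccnd1, Ccnd2, Ccnd3, Cdk4 and Cdk6), 4 genes of the G1/S transition (Ccne1, Ccne2, Cdk2 and E2f1), 5 regulators of S phase and G2 (Ccna2, Cdk1, Fbxo5, Neil3 and Top2a), 13 mitosis genes (Mki67, Ccnb1, Ccnb2, Plk1, Aurka, Aurkb, Bub1, Cenpe, Cenpf, Birc5, Cdc20, Ube2c and Stmn1) and 2 inhibitors of cyclin-dependent kinases (Cdkn1a and Cdkn1b). An S list of 18 of them (licensing, nucleotide supply, Ccne1, Ccne2 and E2f1) and a G2/M list of 15 (the mitosis genes without Stmn1, with Top2a, Ccna2 and Cdk1) were also summed.

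D-type cyclins with Cdk4 or Cdk6 phosphorylate the retinoblastoma proteins, which frees E2F factors to switch on the genes of DNA replication. Later the B-type cyclins with Cdk1 drive mitosis, whose genes are held silent in resting cells by a repressor complex at their promoters, while p21 (Cdkn1a) and p27 (Cdkn1b) hold the kinases back. The neonatal liver still makes blood, so dividing erythroid and B-lineage precursors share it with hepatocytes that are growing with the body.

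Livers of 12 neonatal C57BL/6J mice were dissociated and each mouse gave 1 10x Genomics library of single-cell transcripts. The 6 anemia mice lost 20 µL of blood per g of body weight from the facial vein on postnatal days 2, 4, 6, 8 and 10, the 6 controls were handled alike with a daily needle stick that drew no blood, and all livers were taken on day 11. Litters were split at random between the groups, the labels put all 12 samples in the same batch, and no cells were sorted. Transcripts were counted as unique molecular identifiers (UMIs), so that each captured mRNA counts once.

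Of 207537 barcodes, 206146 were kept (98075 control and 108071 anemia cells, 14184 to 21186 per mouse), in libraries of 46252146 to 74545930 UMIs. Clusters were made without the cell cycle genes, and 21 classes had at least 20 cells in each mouse. Of these, 16 were named after markers ("erythroblast-like"), and clusters 9, 13, 23, 41 and 44 kept their numbers: cluster 13 carried B-lineage genes, cluster 23 genes of T and NK cells, clusters 41 and 44 endothelial genes and cluster 9 neutrophil genes. Across libraries 4951 barcodes occurred more than once (4.85% of kept cells), 12.3% to 18% of the cells of a mouse were called doublets, and Y-linked genes were high in 2 control and 4 anemia mice. Monocyte-like cells were unevenly spread, with 4809 of 8935 anemia cells in anemia mouse 2, and cluster 10 within them held 153 control and 4846 anemia cells. Of these 4846, 3876 came from anemia mouse 2 and 851 from anemia mouse 3. Late erythroid-like cells made up 6.50% ± 4.47 (SD, n = 6) of the control and 20.4% ± 7.25 of the anemia cells.

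The genes of DNA synthesis and mitosis stood highest in the blood-forming cells. Of the 44 members, 24 had their highest control level in erythroblast-like cells and 16 in pre-B-like cells. The 4 others were Ccnd1, highest in plasmacytoid dendritic-like cells, Ccnd2 in cluster 44, Cdkn1b in T-like cells and Cdkn1a in monocyte-like cells. Levels are given as CPM, the gene's UMIs per 1000000 UMIs of the class, and are compared between classes for the same gene only.

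Mki67, which encodes the proliferation antigen Ki-67 that coats mitotic chromosomes (chr7:135689784-135716450 on GRCm38.p6), had a control level of 934 ± 210 (SD, n = 6) in erythroblast-like, 475 ± 83.5 in pre-B-like and 239 ± 51.4 in cluster 13 cells. It fell to 16.3 ± 3.70 in hepatocyte-like and 5.69 ± 4.55 in late erythroid-like cells. Rrm2, the regulated subunit of ribonucleotide reductase, had the same order at the top, with 1571 ± 241, 1065 ± 92.3 and 866 ± 142. In Pclaf, which binds the sliding clamp PCNA, the order turned: 2174 ± 121 in pre-B-like, 1438 ± 194 in cluster 13 and 602 ± 104 in erythroblast-like cells. For Ccnb2, a cyclin of mitosis, erythroblast-like (371 ± 43.9) and pre-B-like cells (371 ± 36) did not differ beyond their spread.

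The G1 genes were laid out differently. Ccnd3 reached 748 ± 81.6 CPM in pre-B-like, 573 ± 80.9 in T-like and 544 ± 36.9 in cluster 13 cells, the last of which lie within each other's spread. Ccnd1 stood at 261 ± 32.6 in plasmacytoid dendritic-like, 213 ± 17.2 in cluster 44 and 187 ± 21.5 in cluster 41 cells. Ccnd2 stood at 383 ± 28.1 in cluster 44, 319 ± 26.8 in cluster 41 and 284 ± 31.8 in stellate-like cells. Among the inhibitors, Cdkn1a stood at 233 ± 16.9 in monocyte-like, 175 ± 20.0 in cluster 41 and 174 ± 18.1 in cluster 44 cells, against 9.11 ± 6.13 in erythroblast-like cells.

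Ube2c, which loads ubiquitin for the anaphase-promoting complex, was an exception in late erythroid-like cells. Its control level there was 149 ± 17.6 CPM, the fifth highest of the 21 classes, and the 15 G2/M genes together came to 181 ± 20.8. Mki67 and Cdkn1a were lowest of all classes in these cells, in which the late erythroid markers, globins included, stood at 835700 to 872000 CPM in control mice.

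**Figure D1:**
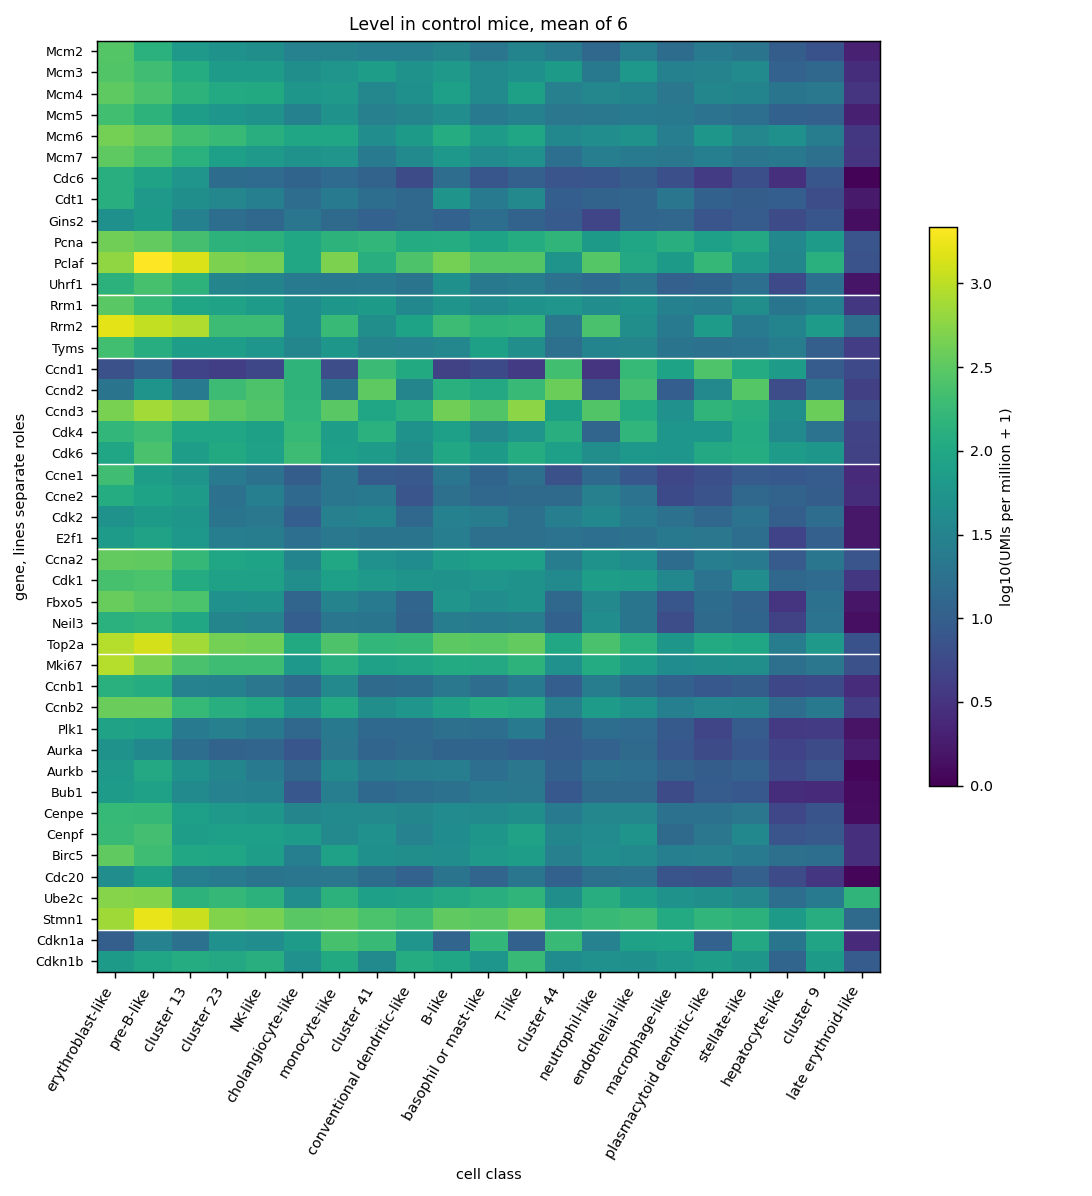
Level of the 44 genes in 21 cell classes of control mice, as log10(CPM + 1), mean of 6 mice; rows are genes in order of role with lines between roles, columns are classes. Erythroblast-like and pre-B-like cells at the left are brightest for 40 of the 44 genes, whereas Ccnd1, Ccnd2, Cdkn1a and Cdkn1b peak elsewhere.

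RefSeq promoter sequence was at hand for 36 of the 44 members, and it is shown for 3 genes whose levels peaked in the blood-forming classes: a helicase subunit of the replication fork (Mcm6), the mitotic kinase (Cdk1) and a mitotic cyclin (Ccnb2). Each line gives the 250 bases before the RefSeq start on GRCm38.p6, 5′ to 3′ on the gene's strand, which is minus for all 3. Capitals mark matches, on either strand, to an E2F motif (the letters TTCCCGC, the letters TTGGCGC, the letters TTCGCGC or the letters TTGCCGC), to the CCAAT box (CCAAT) or to the cell cycle genes homology region, CHR (TTTGAA), and matches that overlap were counted apart.
Mcm6, chr1:128359706-128359955: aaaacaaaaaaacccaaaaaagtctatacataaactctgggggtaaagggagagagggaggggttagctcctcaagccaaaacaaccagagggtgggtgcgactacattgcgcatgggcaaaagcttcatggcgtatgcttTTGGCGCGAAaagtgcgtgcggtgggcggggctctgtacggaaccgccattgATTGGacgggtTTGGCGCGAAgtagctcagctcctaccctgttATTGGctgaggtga
Cdk1, chr10:69352913-69353162: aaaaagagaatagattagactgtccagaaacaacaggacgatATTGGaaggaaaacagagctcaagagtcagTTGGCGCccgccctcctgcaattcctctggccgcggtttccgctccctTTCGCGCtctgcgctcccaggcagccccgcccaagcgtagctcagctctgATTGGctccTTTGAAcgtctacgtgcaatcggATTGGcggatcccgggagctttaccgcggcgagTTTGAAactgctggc
Ccnb2, chr9:70421555-70421804: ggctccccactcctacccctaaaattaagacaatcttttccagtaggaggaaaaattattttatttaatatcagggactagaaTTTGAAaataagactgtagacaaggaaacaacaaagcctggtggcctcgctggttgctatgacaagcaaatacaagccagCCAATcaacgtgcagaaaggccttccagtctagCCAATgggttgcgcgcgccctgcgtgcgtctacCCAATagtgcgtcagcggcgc

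Mcm6 held 4 E2F matches as overlapping pairs that begin 109 and 46 bases before the start, with 2 CCAAT boxes. Cdk1 held 2 E2F, 3 CCAAT and 2 CHR matches. Ccnb2 held no E2F match, 1 CHR match and 3 CCAAT boxes at 87, 54 and 21 bases. Among the 36 members an E2F match occurred in 30.6% and a CCAAT box in 72.2%, against 9.01% and 37.5% of the 27025 genes with a promoter of the same length, while CHR occurred in 19.4% against 18.3%. By role, E2F matches were found in 5 of 10 licensing and fork genes and 2 of 11 mitosis genes, and CCAAT boxes in 8 of 10 and 10 of 11. CHR matches were found in 1 of 10 licensing and fork genes, 4 of 11 mitosis genes and 2 of 4 regulators of S phase and G2. The genes of the other roles had no CHR match. Neither RefSeq start of Cdkn1a was preceded by any of these letters. A match describes the letters of this window and is not a binding site.

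How many cells carried cell cycle transcripts was counted after each cell had been thinned to 1000 UMIs, which left out 15424 control and 17228 anemia cells that had fewer. The share with at least 1 Mki67 UMI was 51.7% to 67.5% (median 60.7%) of erythroblast-like, 21.0% to 33.5% (median 28.9%) of pre-B-like and 9.43% to 14.1% (median 10.8%) of cluster 13 cells in the control mice. In late erythroid-like cells, which have no nucleus or are about to lose it, the share was 0.0% to 1.59% (median 0.438%). Free RNA was not measured apart, and since most UMIs of these cells come from late erythroid markers, globins included, their share is a low guide to it. Hepatocyte-like cells had 0.882% to 1.61% (median 1.02%), which overlapped that range. The share with at least 2 UMIs of the S list was 66.7% to 72.4% in erythroblast-like and 57.8% to 64.8% in pre-B-like cells, and at least 2 UMIs of the G2/M list were found in 74.0% to 85% and 56.8% to 64.9%. Cycling cells also lay outside the classes. Unnamed cluster 12, with granulocyte progenitor and megakaryocyte genes and 39.2% called doublets, had S list shares of 33.3% to 50.8% in control mice. In cluster 13 these were 21.7% to 33.7%. Median depth before thinning was 1385 UMIs in control and 2693 in anemia erythroblast-like cells, 3408 and 3273 in pre-B-like, and 992 and 1348 in late erythroid-like cells.

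**Figure D2:**
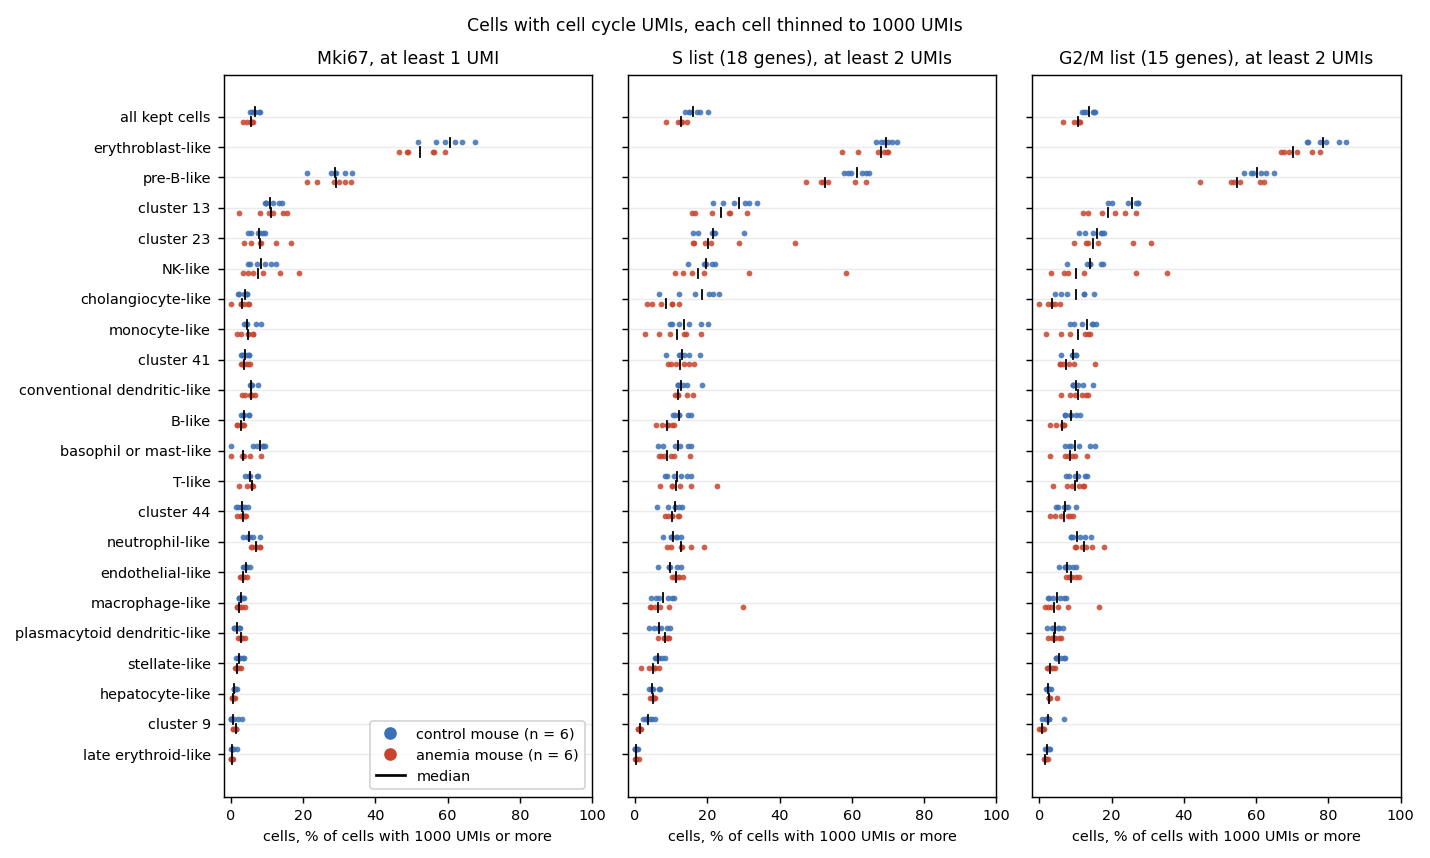
Percentage of thinned cells (1000 UMIs each) with at least 1 Mki67 UMI, at least 2 S list UMIs or at least 2 G2/M list UMIs; each point is a mouse, blue for control and red for anemia (n = 6 each), and the black bar is the median. Erythroblast-like cells lie far to the right of all other classes for Mki67 (control 51.7% to 67.5%), pre-B-like cells follow, and the points of both groups overlap in most classes.

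Whether proliferation changed in anemia was asked first over all kept cells. The thinned share of Mki67-positive cells was 5.42% to 7.95% (median 6.64%) in control and 3.51% to 6.05% (median 5.57%) in anemia mice. The mean fell from 6.75% ± 1.03 to 5.19% ± 0.993 (SD, n = 6), and the exact two-sided permutation test gave p = 0.0281, although the groups overlapped and 2 of 6 anemia mice lay below every control. The p rose above 0.05 without control 1 (0.0519), without control 5 (0.0519) or without anemia 5 (0.0541), and with cells thinned to 500 UMIs the difference was -0.81 percentage points (permutation p = 0.0563). Without thinning the shares were 12.4% to 15.5% and 6.45% to 12.8%. With the late erythroid-like cells left out, the difference of -1.56 percentage points shrank to -0.712 (permutation p = 0.288). S list cells came to 13.7% to 20.3% in control and 8.50% to 14.4% in anemia mice, with 5 of 6 anemia mice below every control, and G2/M list cells to 11.7% to 15.5% and 6.69% to 11.3%, with 6 of 6 below. Without the late erythroid-like cells these 2 list differences went from -4.35 to -2.35 and from -3.69 to -2.27 percentage points.

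In UMIs summed over all kept cells of a mouse, edgeR called 1 of the 44 genes, where 6.92% of all 21187 genes tested were called at an adjusted p under 0.05 (3.17% higher and 3.75% lower in anemia). Cdkn1a, which encodes p21, the inhibitor induced by p53 and by stress (chr17:29090979-29100722), stood at 81.1 to 90.0 (median 83.2) TMM-scaled CPM in control and 115 to 180 (median 121) in anemia mice, where TMM scaling evens out the composition of the libraries. Every anemia mouse lay above every control, with a log2 fold change of 0.62 (SE 0.11, adjusted p = 0.00536). Monocyte-like cells gave 5.62% of the Cdkn1a UMIs of a control liver and 16.9% of those of an anemia liver on average (44.9% in anemia mouse 2 and 27.4% in anemia mouse 3), and their part in the rise was not tested. Within monocyte-like cells Cdkn1a had a log2 fold change of 0.11 (SE 0.09, adjusted p = 0.624). An unadjusted p under 0.05 was reached by 6 members, where 23.5% of all genes reached it, among them Cdkn1b (log2 fold change 0.36, SE 0.12, adjusted p = 0.103) and Ccnd3 (0.33, SE 0.12, adjusted p = 0.13). The median log2 fold change of the 44 was -0.00, against 0.03 over all genes. Without TMM scaling 9 members were called, and 8 of them were lower in anemia (Ccnd1, Ccnd2, Cdk2, Cdk4, Pclaf, Pcna, Stmn1 and Uhrf1), but that scaling also shifted the median of all genes to -0.21. In such sums, fewer cells of a class and fewer transcripts per cell cannot be told apart.

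Of the 149 other cell cycle genes listed, all were tested in these sums and 4 were called. Gadd45a, a growth arrest gene, rose from 24.7 ± 3.79 to 38.6 ± 5.86 TMM-scaled CPM (log2 fold change 0.64), and Blm, a RecQ helicase of replication repair, from 17.4 ± 1.30 to 22.5 ± 2.42 (0.37). Ckap2l, a protein of the mitotic spindle, dropped from 55.4 ± 5.38 to 39.0 ± 2.71 (-0.51), and Cdkn2a from 2.58 ± 0.646 to 1.59 ± 0.335 (-0.69). The medians were 0.02 over 57 replication genes, -0.01 over 74 mitosis genes and 0.09 over 18 brakes of the cycle.

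The cell classes that the transcripts came from moved as well. Pre-B-like cells gave 33.9% to 40.3% (mean 37.2% ± 2.52) of the S list UMIs of a control liver and 8.15% to 34.6% (24.9% ± 9.17) of those of an anemia liver. Cluster 13 went from 10.8% ± 2.27 to 4.30% ± 3.10 with no overlap, while erythroblast-like cells went from 1.90% ± 0.612 to 9.61% ± 4.79 (4.54% to 16.8% in anemia mice), also with no overlap. Cells of the unnamed clusters gave 7.85% ± 1.13 of the S list UMIs in control and 10.2% ± 0.926 in anemia mice. For Mki67 alone the erythroblast-like part was 3.37% ± 1.00 in control and 15% ± 7.46 in anemia mice. Cell numbers moved beside them: erythroblast-like cells were 0.417% ± 0.085 of control and 1.24% ± 0.837 of anemia cells (50 to 86 and 104 to 492 cells per mouse), and pre-B-like cells 6.38% ± 0.742 and 3.94% ± 1.39. The parts are given as a description, without a test.

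**Figure D3:**
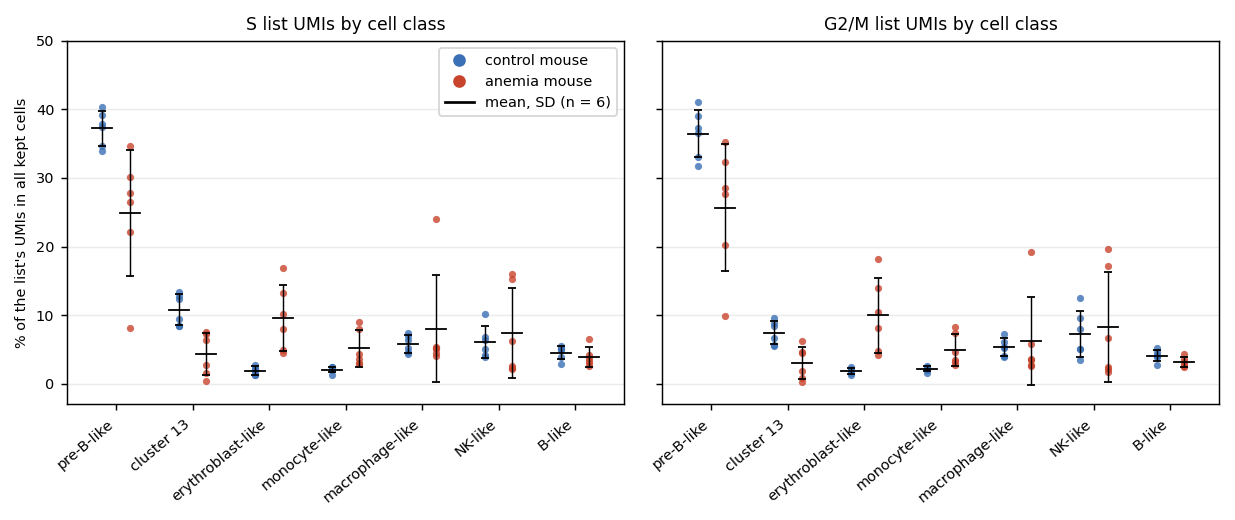
Percentage of all S list (left) or G2/M list (right) UMIs of a liver that came from each of 7 classes; points are mice, bars are mean and SD (n = 6). Pre-B-like cells and cluster 13 give a smaller part in anemia, erythroblast-like cells a larger one (1.90% against 9.61% of the S list).

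Within the classes, 849 pairs of gene and class had enough UMIs to be tested, with 23 members in basophil or mast-like cells, 24 in late erythroid-like cells, 27 in cluster 9, 35 in cholangiocyte-like cells and 41 to 44 in each other class. Of the pairs tested, edgeR called 34 of them (16 higher and 18 lower in anemia), in 8 of the 21 classes. Over all genes and the same classes, 6.73% of the pairs were called (3.22% higher and 3.51% lower), a larger share than among the members. The classes come from the same 12 mice and are not independent of each other. The replicates are separate mice.

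**Figure D4:**
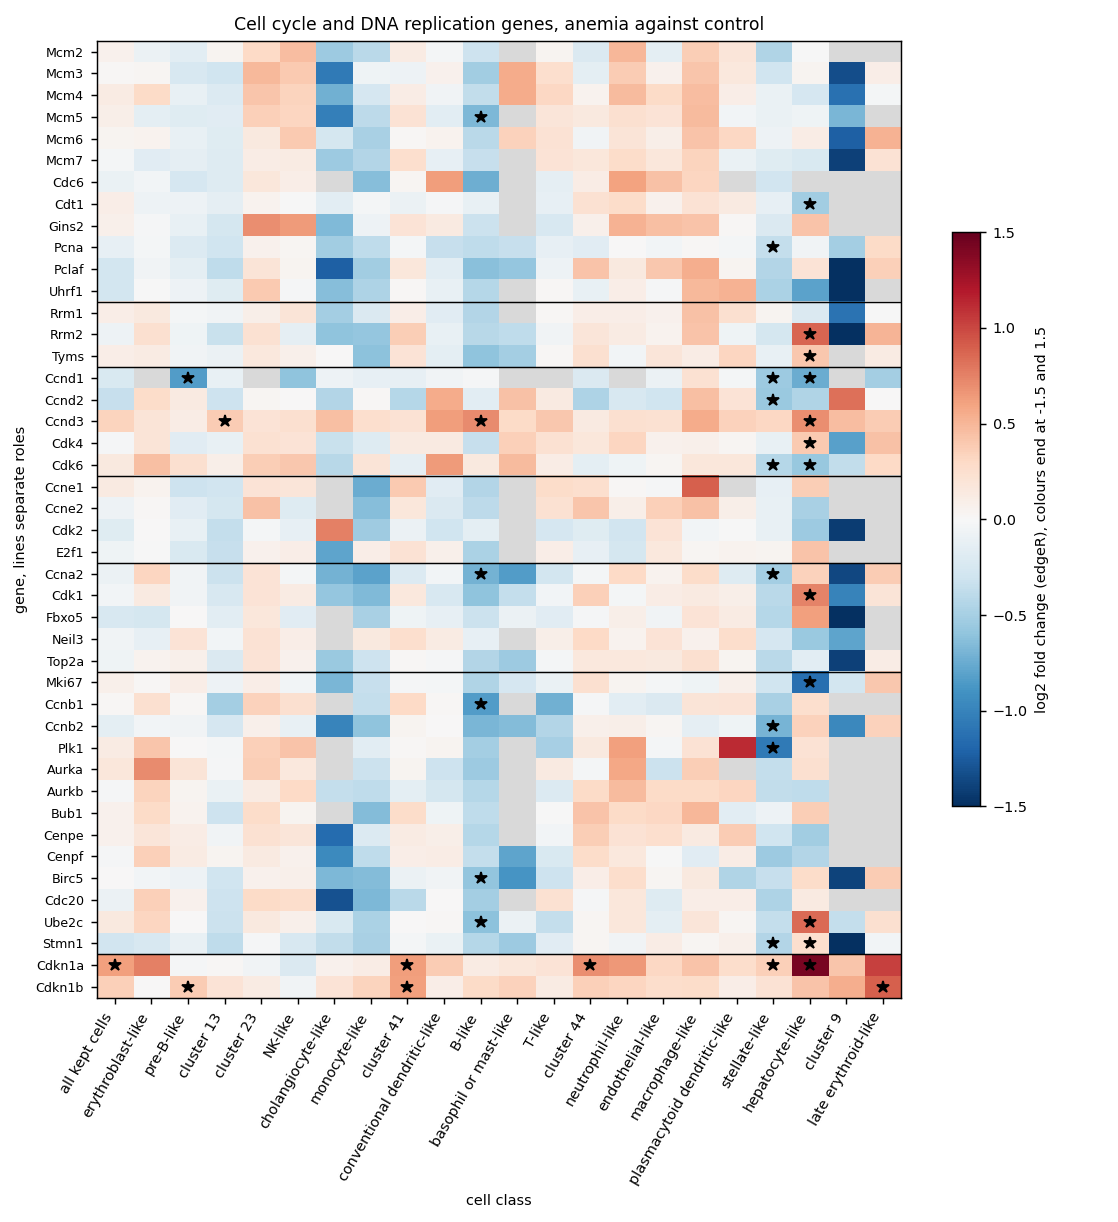
Log2 fold change, anemia against control, of each gene (rows, by role) over all kept cells and in 21 classes (columns), from edgeR; red is higher and blue lower in anemia, grey was not tested and a star marks an adjusted p under 0.05. Stars mark 12 members in hepatocyte-like cells (27.9%, where 46.6% of all genes were called), 9 in stellate-like (20.5%, all genes 15.4%) and 6 in B-like cells (13.6%, all genes 2.11%). Ccnd3, Cdkn1a and Cdkn1b are mostly red.

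In erythroblast-like cells, the class with the highest share of Mki67-positive cells, no member was called by edgeR among 43 tested (background 0.541%), with 7 at an unadjusted p under 0.05 (12.0% of all genes). Mki67 stood at 632 to 1345 (median 1237) TMM-scaled CPM in control and 1051 to 1357 (median 1141) in anemia mice, a log2 fold change of 0.02 (SE 0.13, adjusted p = 0.982). Top2a, the topoisomerase that untangles sister chromatids, ranged over 694 to 1362 and 1006 to 1397 (0.06, SE 0.13, adjusted p = 0.929), and Pcna, the sliding clamp of the DNA polymerases, over 409 to 586 and 456 to 556 (-0.03, SE 0.11, adjusted p = 0.966). All 3 genes overlapped between the groups. The lowest unadjusted p was that of Aurka, a spindle kinase, at 25.5 to 93.9 (median 67.1) and 61.6 to 123 (median 97.1), with a log2 fold change of 0.71 (SE 0.24, adjusted p = 0.193). Over the 15 G2/M genes 13 had a positive log2 fold change (median 0.29), and over the 18 S genes 8 (median -0.00).

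The thinned share of Mki67-positive erythroblast-like cells pointed the other way, with 46.7% to 59.3% (median 52.4%) in anemia against a control median of 60.7% (permutation p = 0.0325, adjusted over 21 classes 0.216). Thinning kept 275 of 409 control and 1132 of 1324 anemia cells of this class, with as few as 29 in a mouse. Without thinning the share was 52.7% to 76.0% in control and 64.3% to 73.9% in anemia mice. Thinned G2/M list cells fell to 66.8% to 77.8%, from 74.0% to 85%. Late erythroid markers stood at 90210 to 120400 CPM in these cells in control and 93500 to 172200 in anemia mice, and their part in the share was not tested. The effect of anemia on Mki67 was compared between 3 pairs of classes, none of which was shown to differ, and the other classes were not compared: on the log2(CPM + 1) scale it differed by -0.12 between erythroblast-like and pre-B-like cells (adjusted permutation p = 0.416), by 0.25 between erythroblast-like and macrophage-like cells (0.519) and by 0.37 between pre-B-like and macrophage-like cells (0.49).

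In pre-B-like cells 2 of 44 members were called (background 4.27%). Ccnd1, a cyclin of G1 (chr7:144929931-144939831), stood at 9.5 to 14.6 (median 12.3) TMM-scaled CPM in control and 4.92 to 9.14 (median 6.50) in anemia mice, without overlap (log2 fold change -0.83, SE 0.17, adjusted p = 0.00635 by edgeR). Cdkn1b, which encodes p27, the inhibitor that marks resting cells (chr6:134920401-134925525), stood at 78.6 to 119 (median 112) and 127 to 166 (median 133), also without overlap (0.38, SE 0.09, adjusted p = 0.0174). Both calls depended on the cells admitted: with called doublets left out Ccnd1 came to -0.22 (adjusted p = 0.759) and Cdkn1b to 0.35 (adjusted p = 0.0747). At Leiden resolution 1 they came to -0.35 (0.529) and 0.31 (0.12) in edgeR. With the cell cycle genes kept in the clustering they came to -0.30 (0.684) and 0.28 (0.112). With Y-linked level as a covariate Cdkn1b lost its call as well (0.34, adjusted p = 0.0563). None of the 18 S genes had a positive log2 fold change (median -0.14), and 0 were called. Mki67-positive cells after thinning were 21.1% to 33.3% (median 29.3%) in anemia and 21.0% to 33.5% (median 28.9%) in control mice. Cells with at least 2 S list UMIs were 57.8% to 64.8% (median 61.3%) in control and 47.3% to 63.9% (median 52.7%) in anemia mice. For the G2/M list they were 56.8% to 64.9% (median 60.3%) and 44.6% to 62.1% (median 54.7%). In both lists 4 of 6 anemia mice lay below every control, a description without a test. Cluster 14, which held 90.3% of the control and 94.3% of the anemia cells of the class, had S list medians of 64.9% and 55.1% and G2/M list medians of 64.9% and 56.9%.

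In cluster 13, the other B-lineage class, 1 of 44 members was called (background 0.786%). Ccnd3, the D-type cyclin of lymphoid precursors (chr17:47505051-47599689), stood at 577 to 690 (median 624) in control and 724 to 982 (median 816) in anemia mice, without overlap (log2 fold change 0.38, SE 0.09, adjusted p = 0.0331 by edgeR). The call was lost when any of 6 mice was left out (control 1, 2, 4 or 6, or anemia 3 or 6; adjusted p 0.0569 to 0.113). It was also lost with Y-linked level as a covariate in edgeR (0.36, adjusted p = 0.083) and in the joint voom model (0.31, adjusted p = 0.139). The remaining members leaned down, with 38 of 44 at a negative log2 fold change and a median of -0.19, but none of these was called. Hepatocyte markers in cluster 13 went from 4116 to 5208 to 1210 to 3352 CPM, without overlap, and late erythroid markers from 1690 to 7355 to 3215 to 14240, and their part was not tested.

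The B-like cells, which carry the markers of maturing B cells, had 6 of 44 members called (background 2.11%), 1 of them higher (background 0.92%) and 5 lower (background 1.19%). Among the genes of replication, Mcm5, a subunit of the replicative helicase, stood at 40.2 to 57.9 (median 49.0) TMM-scaled CPM in control and 16.9 to 41.0 (median 31.6) in anemia mice (log2 fold change -0.67, SE 0.16, adjusted p = 0.0299 by edgeR). Ccna2, the cyclin of S phase and G2, stood at 62.0 to 126 (median 72.4) and 28.5 to 61.5 (median 54.1), without overlap (-0.71, SE 0.18, adjusted p = 0.0423). Ccnb1, a cyclin of mitotic entry, stood at 17.8 to 39.8 (median 22.0) and 10.0 to 18.1 (median 14.4) (-0.83, SE 0.20, adjusted p = 0.0377). For Mcm5 and Ccnb1, 5 of 6 anemia mice lay below every control. Ube2c (-0.62) and Birc5, the survivin of the chromosomal passenger complex (-0.59), were the others that were called lower. Ccnd3 went up instead, from 410 to 539 (median 483) to 547 to 1105 (median 719), and every anemia mouse lay above every control (0.71, SE 0.14, adjusted p = 0.0106).

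Below the threshold the B-like members leaned the same way: 40 of 44 had a negative log2 fold change, and their median was -0.42, against 0.01 over all genes. Cells with at least 2 G2/M list UMIs fell from 7.06% to 11.2% in control to 2.90% to 6.89% in anemia mice, without overlap. Within its 2 clusters the groups overlapped, at 7.41% to 9.83% (median 8.03%) and 2.44% to 9.14% (median 7.12%) in cluster 16 and 4.81% to 16.4% (median 11.8%) and 3.03% to 9.12% (median 4.56%) in cluster 20. The class is made of clusters 16 (5248 control and 3696 anemia cells) and 20 (2367 and 4773), and within each alone the log2 fold change of Ccna2 was -0.50 (adjusted p = 0.225) and -1.14 (adjusted p = 0.0649), while Ccnd3 kept its call. With the cell cycle genes kept in the clustering, which sorts the cells by the genes tested, none of the 5 lower calls passed (log2 fold changes -0.18 to 0.50), the median of the members was -0.03 and that of the G2/M list 0.04. The 2 largest clusters of the class then had Mki67 at 3.1 and 4.58 CPM, against 104 and 71.3 in clusters 16 and 20. The lower calls were also lost with called doublets left out (Ccna2 -0.73, adjusted p = 0.0641). All 5 were lost as well with Y-linked level as a covariate in edgeR (adjusted p 0.0521 to 0.0891) and in the joint voom model (adjusted p 0.0759 to 0.255). Leaving out any of 5 to 9 mice lost each of the lower calls, with adjusted p between 0.051 and 0.113, whereas Ccnd3 passed without any 1 of the 12 mice. Levels of pre-B markers in this class were 708 to 947 and 767 to 1485 CPM, those of hepatocyte markers 2955 to 3950 and 574 to 2292 and those of late erythroid markers 1168 to 3389 and 4328 to 7876, the last 2 without overlap. Their part in the changes was not tested.

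In hepatocyte-like cells 12 of 43 members were called, which is 27.9% where 46.6% of all genes were called. Of these, 8 were higher (background 22.1%) and 4 lower (background 24.5%), and 1 member (Cdc6) was too low to test. Of the licensing and fork genes, Cdt1, which loads the helicase onto origins, was lower (-0.52). Of the nucleotide genes, Rrm2 rose from 25.4 to 44.6 (median 35.7) to 47.9 to 92.1 (median 63.1) TMM-scaled CPM, without overlap (log2 fold change 0.87, SE 0.16, adjusted p = 0.000256 by edgeR), and Tyms, the thymidylate synthase, rose as well (0.41).

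The G1 genes of hepatocyte-like cells split. Ccnd1, the D-type cyclin induced when hepatocytes enter the cycle, fell from 60.5 to 88.3 (median 72.9) to 33.9 to 54.5 (median 47), without overlap (-0.75, SE 0.13, adjusted p = 0.000201 by edgeR). Its partner kinase Cdk6 fell from 67.3 to 87.4 (median 75.8) to 33.6 to 61.0 (median 51.4), also without overlap (-0.57, SE 0.12, adjusted p = 0.000621). Ccnd3 (0.69) and Cdk4 (0.39) were higher, and for both every anemia mouse lay above every control.

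The mitosis genes of hepatocyte-like cells split too. Mki67 fell from 13.4 to 23.1 (median 16.7) to 4.01 to 9.65 (median 8.56), without overlap (log2 fold change -1.13, SE 0.18, adjusted p = 8.58e-05 by edgeR). Ube2c rose from 10.8 to 20.9 (median 17.0) to 26.4 to 34.1 (median 29), without overlap (0.86, SE 0.15, adjusted p = 0.000122). Cdk1 (0.75) and Stmn1, a regulator of microtubules (0.26), rose as well. Among the calls in all classes Cdkn1a had the largest fold change, from 14.6 to 25.8 (median 21.7) to 46.9 to 61.0 (median 56.9), with every anemia mouse above every control (1.42, SE 0.13, adjusted p = 4.18e-07).

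Thinned hepatocyte-like cells with Mki67 were 0.882% to 1.61% in control and 0.223% to 1.04% in anemia mice (permutation p = 0.0238, adjusted 0.216). Without thinning they were 1.64% to 2.74% and 0.715% to 1.18% (adjusted permutation p = 0.0454). Unthinned shares also depend on depth, and the median depth of these cells was 1272 UMIs in control and 1134 in anemia. Markers of other cells moved in this class: late erythroid markers went from 1870 to 9827 to 9050 to 29370 CPM, neutrophil markers from 101 to 234 to 177 to 2245 and granulocyte progenitor markers from 7.16 to 12.5 to 14.8 to 112. Hepatocyte markers went from 120700 to 134600 to 79450 to 116100, monocyte markers from 1580 to 1966 to 811 to 1010, stellate markers from 108 to 127 to 28 to 73.4 and erythroblast markers from 205 to 237 to 120 to 192, each without overlap. Those of stem or progenitor cells and plasmacytoid dendritic cells were lower without overlap as well. Their part in these changes was not tested. With cells of at most 10% mitochondrial UMIs, 5 of the 12 calls passed (Ccnd1, Ccnd3, Cdk1, Cdkn1a and Ube2c) and 2 other members were called (Ccne2 and Uhrf1). The 7 calls lost were Mki67 (-0.90, adjusted p = 0.055), Rrm2 (0.54, 0.058), Cdt1 (-0.65, 0.0527), Cdk6 (-0.36, 0.119), Tyms (0.19, 0.495), Cdk4 (0.12, 0.528) and Stmn1 (0.12, 0.548). The Cdt1 call was also lost without any of 9 mice (adjusted p 0.0553 to 0.136) and in DESeq2 (adjusted p = 0.106), and the Stmn1 call without any of 8 mice (adjusted p 0.055 to 0.115), while the other 10 calls passed without any 1 mouse. Without TMM scaling, which shifted the median of all genes in the class from -0.05 to -0.24, Tyms (0.215, adjusted p = 0.179), Cdk4 (0.20, adjusted p = 0.11) and Stmn1 (0.06, adjusted p = 0.681) lost their calls.

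Hepatocyte-like cells also changed in makeup. Cluster 36 went from 18.5% of the control to 42.9% of the anemia cells of the class, cluster 27 from 27.7% to 11.6%, cluster 8 from 31.5% to 21.9% and cluster 29 from 22.3% to 23.7%. Cluster 27 had the highest Mki67 level of the 4, at 20.7 CPM against 4.73 to 9.04 in the others, and 21.5% of its cells were called doublets. Each cluster was therefore tested alone, a choice made after seeing the data. Ccnd1 was called lower in all 4 (log2 fold change -1.42 to -0.80), and Cdkn1a was called higher in clusters 8, 29 and 36 (1.65 to 1.89) and stood at 0.55 in cluster 27 (adjusted p = 0.0949 by edgeR). Mki67 had enough UMIs in cluster 27 only, where it was called lower (-0.89, adjusted p = 0.0167 by edgeR). Thinned shares of Mki67-positive cells overlapped between the groups in clusters 27, 29 and 36. Their medians were 1.92% in control and 1.61% in anemia mice, 0.177% and 0.381%, and 0.0% and 0.237%. In the pooled thinned cells of cluster 8 the share was 1.08% in control and 1.31% in anemia. Cdk6 (-0.54) and Ccnd3 (0.67) were called in cluster 27 only. The 7 other calls of the class passed in none of the clusters that could be tested. Among these, Ube2c was negative in cluster 27 (-0.29), Rrm2 in cluster 27 (-0.12) and Cdk4 in clusters 8, 27 and 36 (-0.26 to -0.28).

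In stellate-like cells 9 of 44 members were called (20.5%, background 15.4%), 8 of them lower (background 7.17%) and 1 higher (background 8.22%). Clusters 0 and 46 of the class had Colec11 and Reln among their top genes, and cluster 47 had Mfap4, Col1a1, Lum and Dpt. The class may thus hold more than 1 kind of cell. Among the mitosis genes, Ccnb2 fell from 28.6 to 47.5 (median 34.3) to 16.9 to 28.1 (median 21.5) TMM-scaled CPM, without overlap (log2 fold change -0.70, SE 0.15, adjusted p = 0.00491 by edgeR). Plk1, the polo-like kinase of mitotic entry, went from 5.89 to 12.3 (median 9.72) to 1.57 to 8.00 (median 5.25), and 4 of 6 anemia mice lay below every control (-1.06, SE 0.31, adjusted p = 0.0287). Among the G1 genes, Ccnd2 fell from 258 to 339 (median 320) to 139 to 278 (median 208), with 5 of 6 anemia mice below every control (-0.55, SE 0.13, adjusted p = 0.00875). Ccnd1 (-0.55), Ccna2 (-0.51), Stmn1 (-0.44), Cdk6 (-0.43) and Pcna (-0.36) were called lower as well. Cdkn1a went up from 108 to 122 (median 110) to 120 to 180 (median 139), and 5 of 6 anemia mice lay above every control (0.36, SE 0.09, adjusted p = 0.0117).

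As a whole, 39 of the 44 members had a negative log2 fold change in stellate-like cells, with a median of -0.30 against -0.00 over all genes. Of the other cell cycle genes 20 were called lower and 2 higher among 149, for example Ckap2l (-1.09), Cit, the citron kinase of cytokinesis (-0.84), and Racgap1, which also acts in cytokinesis (-0.74), all lower, and Btg2, an antiproliferative gene (0.51), higher. Stellate-like clusters 46 and 47 were mostly called doublets (90.4% and 61.1% of their cells), and with doublets left out the class had too few cells per mouse to test. Cluster 47 went from 39.8% of the control to 67.6% of the anemia cells of the class, cluster 46 from 32.1% to 18.2% and cluster 0 from 28.1% to 14.2%. G2/M list cells in the pooled thinned cells went from 8.8% to 7.87% in cluster 46, from 4.23% to 2.24% in cluster 47 and from 4.67% to 1.26% in cluster 0. In cluster 46 alone, Cdkn1a was the 1 call of the class that passed in edgeR (0.78), and Pcna stood at 0.01. In cluster 47 alone 0 passed, with the same direction for all 9 (Plk1 -1.12, adjusted p = 0.161; Ccna2 -0.89, adjusted p = 0.141). Over all members, 15 of 44 were negative in cluster 46 (median 0.09) and 38 of 43 in cluster 47 (median -0.51), so the lean of the class did not appear in cluster 46. Cluster 0 had too few cells in some mice to be tested alone. Endothelial markers stood at 2917 to 4675 in control and 2069 to 4110 in anemia mice and late erythroid markers at 1018 to 3478 and 3227 to 13450, and their part was not tested. Plk1, Ccna2, Ccnd1 and Stmn1 lost their calls without 5, 4, 3 and 9 of the mice, while the other 5 calls passed without any 1 of them. Those 4 were also lost in edgeR with Y-linked level as a covariate (adjusted p 0.054 to 0.108). With the cell cycle genes kept in the clustering they were lost too (0.0567 to 0.11), as was Pcna (-0.24, adjusted p = 0.0863). At Leiden resolution 1 Cdk6 was lost (-0.26, adjusted p = 0.101).

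The inhibitors were the members called in the endothelial-gene clusters. In cluster 41, 2 of 44 members were called (background 10.9%): Cdkn1a went from 168 to 224 (median 185) to 232 to 340 (median 293) (log2 fold change 0.63, SE 0.11, adjusted p = 0.00103 by edgeR) and Cdkn1b from 37.8 to 46.3 (median 41.1) to 53.4 to 92.3 (median 60.7) (0.62, SE 0.13, adjusted p = 0.00386), both without overlap. In cluster 44, 1 of 44 was called (background 17.9%): Cdkn1a went from 164 to 223 (median 190) to 279 to 337 (median 302), without overlap (0.69, SE 0.08, adjusted p = 5.46e-05). Markers of other cells moved in both clusters: late erythroid markers went from 871.8 to 12760 to 14390 to 31670 CPM in cluster 41 and from 472.6 to 2263 to 2249 to 4935 in cluster 44, and megakaryocyte markers from 38.8 to 52.0 to 64.9 to 220.8 and from 38.2 to 48.1 to 73.3 to 238.2. Monocyte markers went from 37.4 to 72.0 to 54.1 to 226.7 and from 27.3 to 42.4 to 42.2 to 242.5. Their part was not tested. In late erythroid-like cells 1 of the 24 members tested was called (background 6.54%): Cdkn1b went from 6.21 to 8.87 (median 6.78) to 10.2 to 18.7 (median 12.5), without overlap (0.89, SE 0.25, adjusted p = 0.0286). That last call was lost without TMM scaling (0.51, adjusted p = 0.217), which shifted the median of all genes in the class to -0.37, and without any of 7 mice (control 1, 2, 5 or 6, or anemia 2, 3 or 4; adjusted p 0.051 to 0.0787). Control 3 had 161 late erythroid-like cells, against 629 to 2410 in the other controls, so its value rests on few UMIs.

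**Figure D5:**
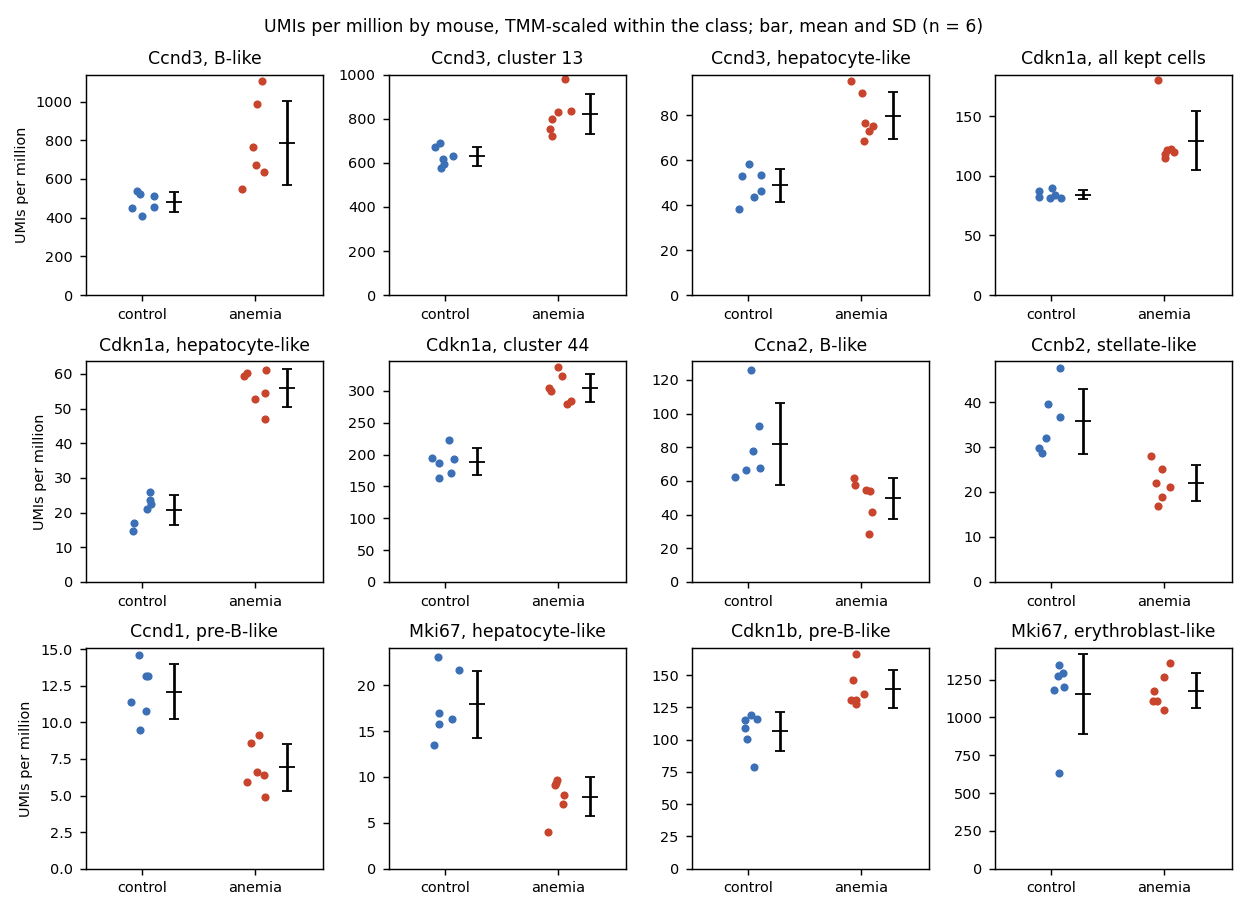
TMM-scaled CPM by mouse for 12 pairs of gene and class; points are mice, and the bar beside them is mean and SD (n = 6 per group). Cdkn1a in hepatocyte-like cells and cluster 44, and Ccnd3 in B-like cells, are apart between the groups, whereas Mki67 in erythroblast-like cells overlaps.

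Across the 21 classes, Ccnd3 had a log2 fold change between 0.11 (SE 0.08, pre-B-like) and 0.71 (SE 0.14, B-like), with 3 calls. Cdkn1b ran from -0.05 (SE 0.17, NK-like) to 0.89 (late erythroid-like), with 3 calls, and Cdkn1a from -0.21 (SE 0.23, NK-like) to 1.42 (hepatocyte-like), with 4. Ccnd1 was tested in 15 classes and ran from -0.83 (pre-B-like) to 0.23 (SE 0.15, macrophage-like), with 3 calls, all lower. Of the 44 genes, 23 were called in no class, among them Mcm2, Mcm3, Mcm4, Mcm6, Mcm7, Pclaf, Uhrf1, Rrm1, Top2a, Aurka, Aurkb, Cenpe and Cenpf. Since the classes come from the same mice, these ranges are a description.

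In the other 12 classes edgeR called 0 members, and the backgrounds were as low as 0.02% (cholangiocyte-like) and as high as 10.8% (endothelial-like). An unadjusted p under 0.05 was reached by 19 of 27 members tested in cluster 9, where 13.6% of all genes reached it, and by 15 of 35 in cholangiocyte-like cells (83.5% called doublets), where 9.31% did. It was reached by 6 members in cluster 23 (all genes 9.31%) and neutrophil-like cells (12.4%), and by 5 in monocyte-like (14.1%), conventional dendritic-like (13.2%) and endothelial-like cells (25.8%). In macrophage-like (21.4%) and basophil or mast-like cells (6.21%) 3 members reached it, and in NK-like (12.2%), T-like (7.89%) and plasmacytoid dendritic-like cells (10.5%) 2 did. At the adjusted threshold the backgrounds were 0.0512% in cluster 9, 0.506% in cluster 23, 0.727% in neutrophil-like, 0.246% in monocyte-like, 0.618% in conventional dendritic-like, 2.94% in macrophage-like, 0.0507% in basophil or mast-like, 0.334% in NK-like, 1.1% in T-like and 0.564% in plasmacytoid dendritic-like cells.

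In cluster 9, Top2a stood at 21.8 to 137 (median 46.7) TMM-scaled CPM in control and 6.72 to 49.0 (median 21.1) in anemia mice (-1.40, SE 0.45, adjusted p = 0.19), Pcna at 42.6 to 103 and 39.9 to 63.9 (-0.50, adjusted p = 0.325) and Mki67 at 2.73 to 30.6 and 6.72 to 31.2 (-0.28, adjusted p = 0.825). The 27 members tested had a median of -1.11, which became 0.38 with called doublets left out. In cholangiocyte-like cells Mki67 stood at 36.8 to 109 and 22.6 to 62.0 (-0.68, SE 0.29, adjusted p = 0.475), Top2a at 69.6 to 179 and 12.1 to 144 (-0.55, adjusted p = 0.614) and Pcna at 64.8 to 176 and 60.6 to 102 (-0.52, adjusted p = 0.424), with overlap in all 3. Of the cells of this class 83.5% were called doublets, and with doublets left out it could not be tested. The values may thus hold transcripts of other cells. In basophil or mast-like cells the values were 83.1 to 173 and 48.0 to 162 for Mki67 (-0.26, adjusted p = 0.944), 249 to 495 and 206 to 335 for Top2a (-0.54, adjusted p = 0.513) and 81.1 to 151 and 20.8 to 148 for Pcna (-0.34, adjusted p = 0.927).

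In macrophage-like cells Top2a stood at 41.3 to 92.3 in control and 26.3 to 186 in anemia mice (log2 fold change 0.24, SE 0.39, adjusted p = 0.763), Mki67 at 35.0 to 66.2 and 17.1 to 73.3 (-0.06, adjusted p = 0.921) and Pcna at 120 to 156 and 91.3 to 211 (0.02, adjusted p = 0.971). Anemia mouse 2 was the highest for Pcna, and it also held 1250 of the 1885 anemia cells of macrophage-like cluster 5. The S list share of this mouse was the highest within each macrophage-like cluster. It was 22.0% in cluster 1, 44.3% in cluster 4 and 26.0% in cluster 5. The part of cluster 5 in the values of the class was not tested. In monocyte-like cells Mki67 stood at 99.4 to 168 and 38.0 to 165 (-0.35, SE 0.29, adjusted p = 0.618), Top2a at 208 to 343 and 68.4 to 320 (-0.31, adjusted p = 0.664) and Pcna at 120 to 192 and 79.4 to 164 (-0.38, adjusted p = 0.356). Cluster 10, with Mki67 at 21.3 CPM against 104 in cluster 39, went from 6.8% to 54.2% of the pooled cells of this class. Of its 4846 anemia cells, 3876 came from anemia mouse 2 and 851 from anemia mouse 3. Each of the other anemia mice had 12 to 51, and each control had 8 to 79. In cluster 39 the thinned Mki67 share had medians of 4.91% in control and 5.02% in anemia mice. The part of the makeup was not tested. In neutrophil-like cells the log2 fold changes were 0.04 for Mki67, 0.16 for Top2a and 0.01 for Pcna, and in plasmacytoid dendritic-like and conventional dendritic-like cells those of Mki67 were 0.08 and -0.02, those of Top2a 0.04 and -0.02 and those of Pcna -0.02 and -0.34.

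Among lymphoid classes, NK-like cells had Mki67 at 112 to 341 (median 232) in control and 63.6 to 377 (median 193) in anemia mice, with a log2 fold change of -0.04 (SE 0.35, adjusted p = 0.981), Top2a at 314 to 570 and 145 to 983 (0.06, adjusted p = 0.965) and Pcna at 130 to 185 and 91.0 to 303 (0.03, adjusted p = 0.971). Anemia mice thus spread on both sides of the controls. Anemia mouse 2 had the highest S list share in NK-like clusters 22 (55.2%) and 25 (60.5%), cluster 23 (44.4%) and T-like cluster 24 (22.8%). In monocyte-like cluster 39 it had the lowest (6.53%). NK-like cells carried T markers beside NK markers, at 2876 to 3394 and 4817 to 6318 CPM in control mice. In T-like cells of control mice the T markers stood at 4763 to 5705 CPM. T-like cells gave -0.10 for Mki67, -0.03 for Top2a and -0.12 for Pcna, and cluster 23 gave 0.10, 0.21 and 0.06. Endothelial-like cells gave -0.03, 0.15 and -0.04. Below the threshold the leans of these classes went both ways. Positive log2 fold changes were held by 40 of 44 members in macrophage-like cells (median 0.25), 40 of 43 in cluster 23 (0.20) and 35 of 43 in neutrophil-like cells (0.17). Negative ones were held by 37 of 44 in monocyte-like (-0.38), 30 of 35 in cholangiocyte-like (-0.55) and 23 of 27 in cluster 9. In macrophage-like cells the S list stood at 1184 CPM in anemia mouse 2, with medians of 480 in control and 401 in anemia mice. In cluster 23 it stood at 2808 and 2143 CPM in anemia mice 2 and 3, with medians of 1643 and 1622. In the joint voom model the median of the macrophage-like members was -0.10. That of the neutrophil-like members was -0.31 with the cell cycle genes kept in the clustering and -0.15 at Leiden resolution 1. Under the other settings both stayed positive. Members were measured in the same mice, so counts of direction in any class are a description. No share of Mki67-positive cells passed adjustment over the 21 classes (lowest adjusted permutation p = 0.216), and 4 classes had an unadjusted p under 0.05 (B-like, erythroblast-like and hepatocyte-like cells lower, plasmacytoid dendritic-like cells higher by 1.20 percentage points). The smallest p that 6 against 6 mice allow is 0.00216.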

How the data were processed

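Livers of 6 control and 6 anemia mice were profiled, 1 library per mouse. Per the labels and file headers, the authors made the deposited UMI counts with Cell Ranger (7.0.0 in the matrix headers) and used Seurat, with mm10 named in the submitters' processing notes. The counts were not normalized, the kit version differs between the labels and the methods, and the collection day is the labels' day 11, where a legend of the study gives the day before.

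Barcodes were kept if they held 500 to 50000 UMIs, of which no more than 50% were mitochondrial (14184 to 21186 cells per mouse). Cells were clustered without cell cycle genes in scanpy 1.11.5 (2000 variable genes, 20 components, 20 neighbours, Leiden resolution 2, 55 clusters) and named from marker lists, and conditions for leaving a cluster unnamed were added after the clusters were seen. Doublets were called with simulated doublets and kept, except in an alternative. UMIs were summed per mouse and class (at least 20 cells in each mouse), and genes averaging 5 or more UMIs over the mice were tested in edgeR 4.0.16 (quasi-likelihood test, TMM scaling, Benjamini-Hochberg adjustment over all genes of the class, threshold 0.05). All 44 members were accounted for. Values are given for each call and, in classes without one, for Mki67, Pcna and Top2a. Shares of cells were compared by two-sided exact permutation tests over the 924 splits of 12 mice, after thinning to 1000 UMIs per cell. Intervals and limits for shares of 0 use 3 counts and cover counting error only. Alternatives included DESeq2 1.42.0, a joint limma 3.58.1 voom model, other filters, clusterings and scalings, the replicate number as a block, and leaving out each mouse. The edgeR and permutation steps were tested on simulated data. The members and lists were chosen with earlier results of these data known.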

Additional observations from a re-analysis of the deposited data

Results flagged for a closer look

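In 8 of 132 groups of 6 mice, 1 mouse stood apart from the others in its share of thinned cells, by a gap wider than Dixon's 95% critical value allows. Chance flags about 1 in 20 such groups. In macrophage-like cells, S list cells were 29.9% in anemia mouse 2, with 9.39% in the next mouse, and the same mouse stood apart in S list cells among late erythroid-like cells (0.993%, next 0.376%) and in G2/M list cells among hepatocyte-like cells (4.91%, next 3.00%). It also held 4809 of the 8935 monocyte-like anemia cells, and the part of that in these values was not tested. Over all kept cells, G2/M list cells were 6.69% in anemia mouse 5, with 9.68% in the next mouse. Among controls, G2/M list cells were 6.12% in control 2 in cluster 41 (next 9.15%) and 6.73% in control 3 in cluster 9 (next 2.8%). Mki67-positive cells were 7.43% in control 5 among conventional dendritic-like cells (next 5.93%) and 0.0% in control 3 among basophil or mast-like cells, where 0 of 45 cells allows a share of up to 6.67% (next 6.25%).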

How the results depend on the processing

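Over all kept cells, Cdkn1a was the only call under every alternative run except library sizes without TMM, which called 9.0 members. Within classes 34 pairs were called, 25 to 38 with 1 mouse left out, 63 with no filter on low counts, 49 with DESeq2, 42 in the joint voom model and 23 with Y-linked level as a covariate. Of the 35 calls, 6 passed under all alternatives that gave a value: Cdkn1a over all kept cells and in clusters 41 and 44, Cdkn1b in cluster 41, Ccnd3 in B-like and Ccnd1 in hepatocyte-like cells. Clusters 41 and 44 have no value at Leiden resolution 1 or with the cell cycle genes kept in the clustering, and stellate-like cells none with doublets left out. With those genes kept, Ccna2 in B-like cells reversed to 0.50. In cluster 27 alone, Ube2c (-0.29), Stmn1 (-0.44), Tyms (-0.64), Cdk4 (-0.28) and Rrm2 (-0.12) reversed in hepatocyte-like cells, as did Stmn1 (-0.060) and Cdk4 (-0.26) in cluster 8 alone, Cdk4 (-0.28) in cluster 36 alone and, in stellate-like cells, Pcna (0.0115) in cluster 46 alone. None of these passed the threshold, and the single clusters, which hold fewer cells, were chosen after seeing the data. The Mki67 share, all kept cells pooled, differed by -1.56 percentage points, by -1.83 to -1.22 with 1 mouse left out (permutation p = 0.0519 without control 1, 0.0519 without control 5 and 0.0541 without anemia 5), by -0.81 when thinned to 500 UMIs, by -0.406 for at least 2 UMIs and by -0.712 without late erythroid-like cells, the last chosen after seeing the data. Within classes 1.0 share passed adjustment without thinning, that of hepatocyte-like cells.

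With the replicate number as a block the Mki67 share, all kept cells pooled, kept its difference of -1.56 and had a sign-flip permutation p = 0.0625, and 51 pairs were called within classes. Same-numbered mice were not shown to deviate together (correlations -0.203 to 0.472, and only number 4 correlated best with its own). No pairing by number was shown, and so few correlations cannot exclude one.

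Doublets left out could not be fitted in stellate-like and cholangiocyte-like cells. Low shares, as in hepatocyte-like cells, are limited by depth.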
